A study of Mus musculus with 30 samples.

Results

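Zscan4a, Zscan4c, Zscan4d, Zscan4f, Tcstv1, Tcstv3 and Zfp352 are genes of the two-cell-like state of mouse embryonic stem cells (mESCs), and their read counts were examined in 30 bulk RNA-seq libraries. They were chosen by name and found as the rows of the count table whose Ensembl identifiers carry these symbols in the GENCODE annotation, which gave 7 of 55421 genes. All 7 were present in the table. None was chosen for its values in these libraries, but they were chosen with earlier results of these data known.

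A small and changing share of mESCs in culture passes for a short time into a state that resembles the two-cell embryo, in which the mouse genome is first transcribed. Such cells turn on Zscan4 genes, Tcstv genes, Zfp352, Usp17-like genes and many copies of the MERVL retroviral element, largely downstream of the transcription factor DUX, and turn them off again on leaving the state. ZSCAN4 proteins carry a SCAN domain and zinc fingers and act on telomere length and genome stability, TCSTV proteins are small proteins of the same stage that have also been tied to telomere length, and ZFP352 is a zinc finger protein that binds retroelements. A level in bulk RNA is the product of how many cells are in the state and how much RNA each of them holds, and these cannot be told apart here.

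The study asked whether loss of 1 X chromosome, or of a large segment of it, changes the expression of the X chromosome that remains. All libraries came from female 129/Sv x Cast/Ei hybrid mESCs grown on irradiated feeder fibroblasts, which were depleted by pre-plating before RNA extraction. XX wild type (2 libraries) carries no engineered change. XX Rnf12+/- (2 libraries), the study's reference, lacks 1 copy of Rnf12 (gene symbol Rlim), an X-linked ubiquitin ligase gene, on the 129 X chromosome, and every deletion line carries that change as well. The 13 deletion lines each lost a further segment of the 129 X chromosome: Deletions C, D, E, F, H, I, I-TEL, J and K had 2 clones each, and Deletions A, B, AB and C-G had 1 clone each. XCastO129 (2 libraries) kept the Cast X chromosome, and X129OCast (2 libraries) kept the 129 X chromosome with the Rnf12 deletion. The XO lines and Deletions AB, C-G and I-TEL arose as unplanned losses during targeting, and Deletions J and I-TEL were made from a second Rnf12+/- line, while the other deletions were made from the first. Which of the parental lines the XX Rnf12+/- libraries came from is not given in the sources used here, and for Deletions J and I-TEL the parental line and the deletion cannot be told apart. The 7 genes lie on chromosomes 4, 7 and 13, outside the engineered X chromosome.

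The libraries fell into 3 library batches by their names. Deletion E shared a batch with both XX groups (6 libraries of 20374510 to 21180709 counts each), the 12 other deletion lines made up the largest batch (20 libraries of 8815980 to 10679746 counts), and the XO lines the last (4 libraries of 14997997 to 16494587 counts, from single reads in place of paired reads). Rlim lay at 193 to 211 transcripts-per-million (TPM) in XX wild type, at 77.6 to 79.7 TPM in XX Rnf12+/- and at 3.53 TPM in X129OCast, the order that the labels give. The 6 stem cell markers Pou5f1, Sox2, Nanog, Esrrb, Zfp42 and Klf4 were detected in all 30 libraries and summed to 4133 to 6103 TPM. The 7 fibroblast markers Col1a1, Col1a2, Col3a1, Postn, Lum, Dcn and Thy1 were also above 0 in every library and summed to 63.8 to 325 TPM.

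The 7 genes form 3 families, and the copies within a family share stretches of sequence, which bears on how far each row can be read on its own. On GRCm38, Zscan4a lies at chr7:10794242-10799057 on the minus strand, Zscan4c at chr7:11005745-11010547 on the plus strand, Zscan4d at chr7:11161374-11166159 on the minus strand and Zscan4f at chr7:11397915-11402318 on the plus strand, within 1 cluster of 9 annotated copies. Zscan4a (ENSMUSG00000110097) is annotated as an unprocessed pseudogene and the other 6 genes as protein coding. Tcstv1 lies at chr13:119893388-119894785 on the minus strand, Tcstv3 at chr13:120316878-120318178 on the plus strand and Zfp352 at chr4:90218820-90225702 on the plus strand. The first 100 coding bases of the annotated transcripts are printed here because they show what a 50-base read has to tell the copies apart, with bases that differ from Zscan4c in capitals.
Zscan4c: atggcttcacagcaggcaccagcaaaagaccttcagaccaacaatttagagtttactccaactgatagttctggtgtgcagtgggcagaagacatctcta
Zscan4d: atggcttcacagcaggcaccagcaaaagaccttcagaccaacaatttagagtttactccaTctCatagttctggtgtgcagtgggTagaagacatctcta
Zscan4f: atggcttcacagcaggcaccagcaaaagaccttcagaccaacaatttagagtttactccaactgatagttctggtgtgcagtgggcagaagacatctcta
Tcstv1: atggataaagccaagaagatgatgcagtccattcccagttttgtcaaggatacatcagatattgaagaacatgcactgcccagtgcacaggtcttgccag
Tcstv3: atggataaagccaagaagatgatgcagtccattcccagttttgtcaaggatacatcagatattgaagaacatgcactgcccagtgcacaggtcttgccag

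Over this stretch Zscan4f did not differ from Zscan4c, Zscan4d differed at 3 bases, and Tcstv1 and Tcstv3 did not differ. Over the aligned bases of the transcripts Zscan4c was 99.6% identical to Zscan4f, 98.02% to Zscan4a and 97.5% to Zscan4d. Tcstv1 was 90.2% identical to Tcstv3 over 743 aligned bases, where the transcripts hold 1280 and 779 bases. Of all 50-base windows of a transcript, 50.4% in Zscan4d, 36.4% in Zscan4a, 14.5% in Zscan4c and 4.66% in Zscan4f occurred in no other annotated transcript, against 68.6% in Tcstv3, 83.2% in Tcstv1 and 92.9% in Zfp352. A read from a shared window cannot be given to 1 copy, and how the authors' counting treated such reads is not given in the sources used here. The values of single Zscan4 and Tcstv rows are therefore uncertain, and sums over the 4 Zscan4 rows and over the 2 Tcstv rows are given beside them.

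RefSeq promoters (GRCm38.p6) were at hand for 4 of the 7 genes, Zscan4c, Zscan4d, Zscan4f and Zfp352. They are printed because members that moved together can be compared in the bases upstream of their starts. The 250 bases before each start lie at chr7:11005495-11005744 for Zscan4c, chr7:11166149-11166398 for Zscan4d, chr7:11397665-11397914 for Zscan4f and chr4:90218570-90218819 for Zfp352, on the strand of each gene. Capitals mark bases that differ from Zscan4c in Zscan4d and Zscan4f, and copies of a repeated unit in Zfp352.
Zscan4c: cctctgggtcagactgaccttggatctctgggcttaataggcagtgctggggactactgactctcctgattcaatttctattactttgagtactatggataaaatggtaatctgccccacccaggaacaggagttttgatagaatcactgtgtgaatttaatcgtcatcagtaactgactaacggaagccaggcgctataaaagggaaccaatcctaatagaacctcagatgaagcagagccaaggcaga
Zscan4d: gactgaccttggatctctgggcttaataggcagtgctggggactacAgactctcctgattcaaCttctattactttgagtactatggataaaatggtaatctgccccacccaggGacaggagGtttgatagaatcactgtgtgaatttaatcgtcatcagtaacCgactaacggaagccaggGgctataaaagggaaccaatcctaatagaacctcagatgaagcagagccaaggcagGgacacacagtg
Zscan4f: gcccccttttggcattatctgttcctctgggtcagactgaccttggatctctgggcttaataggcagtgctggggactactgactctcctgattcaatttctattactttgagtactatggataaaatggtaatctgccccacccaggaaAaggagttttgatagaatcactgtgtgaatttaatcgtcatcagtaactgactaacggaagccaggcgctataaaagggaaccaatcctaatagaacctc
Zfp352: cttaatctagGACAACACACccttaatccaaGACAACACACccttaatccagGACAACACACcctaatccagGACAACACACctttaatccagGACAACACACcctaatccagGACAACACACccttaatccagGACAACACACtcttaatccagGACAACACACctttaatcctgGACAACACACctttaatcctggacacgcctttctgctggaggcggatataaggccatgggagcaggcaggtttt

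The Zscan4f promoter differed from that of Zscan4c at 1 of 227 aligned bases and the Zscan4d promoter at 7 of 239. The Zfp352 promoter held 9 copies of GACAACACAC, a unit picked after the sequence was seen, which 17 of 27025 RefSeq promoters (0.0629%) hold on either strand in the 250 bases before to 50 bases after the start. In the same windows and on both strands, the ZSCAN4-associated letters TGCACAC were in none of the 4 promoters and in 4.19% of all. The GATA letters AGATAA were in Zscan4f only, and in 11.4% of all promoters. That match lies upstream of the 227 aligned bases, where the windows of Zscan4c and Zscan4d do not reach. These matches describe letters in a window and not binding.

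All 7 genes were low. On the TPM scale, which allows for transcript length, the median level over the 30 libraries was 1.67 TPM for Zscan4a, 1.39 for Zscan4d, 0.926 for Zfp352, 0.810 for Tcstv3, 0.415 for Zscan4c, 0.171 for Zscan4f and 0.170 for Tcstv1. The highest level of any library was 8.48 TPM, for Zfp352 in Deletion J replicate 2. Summed over the 30 libraries the rows held 602 counts for Zscan4a, 536 for Zscan4d, 466 for Zfp352, 194 for Zscan4c, 160 for Tcstv3, 72 for Zscan4f and 45 for Tcstv1. Zfp352 had at least 1 count in every library, whereas Tcstv1 was at 0 in 14 libraries, Zscan4f in 8, Zscan4c and Tcstv3 in 7 each, Zscan4d in 3 and Zscan4a in 2. Tcstv1 passed the filter on low counts (10 counts in at least 2 libraries) in none of the 3 fits, and Zscan4f passed only in the fit of all 30 libraries, so that 6 members were tested there and 5 in the others. A member that passed through a few high libraries had a better chance of differing, and the counts of calls below are over tested members only.

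Within the Zscan4 sum, Zscan4a held 42.9% of the counts, Zscan4d 38.2%, Zscan4c 13.8% and Zscan4f 5.13%. Over the 30 libraries the levels of Zscan4a and Zscan4d on the log2 scale moved together with Pearson's r of 0.90 (n = 30 libraries), which share reads between copies as well as depth within each library. The Zscan4 sum moved with Zfp352, which has little sequence in common with it, with r of 0.75 over 30 libraries, 0.87 over the 20 libraries of the largest batch and 0.61 over 16 of these without Deletions J and I-TEL. With the Tcstv sum r was 0.69, 0.87 and 0.65 in the same 3 sets. These correlations are descriptions across libraries that share lines and batches.

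The Zscan4 sum spanned a wide range over the 17 conditions. On the counts-per-million (CPM) scale, the 2 libraries held 7.58 and 8.37 in Deletion J, 6.36 and 7.17 in XX wild type, 6.21 and 5.73 in Deletion I-TEL and 3.48 and 7.18 in Deletion E. They held 3.94 and 4.93 CPM in X129OCast, 4.50 and 4.29 in XCastO129 and 4.99 and 1.18 in XX Rnf12+/-. These 7 conditions had the highest means, and their order runs from Deletion J (mean 7.97 CPM) through XX wild type (6.76) to XX Rnf12+/- (3.09).

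The remaining deletion lines lay lower. The Zscan4 sum was 2.72 CPM in Deletion A, 1.58 and 3.64 in Deletion D, 1.91 and 2.90 in Deletion F, 1.43 in Deletion B, 1.43 and 1.04 in Deletion C and 1.13 in Deletion AB. It was 0.491 and 0.988 CPM in Deletion H, 0.3003 and 0.673 in Deletion K, 0 and 0.593 in Deletion I and 0.0980 in Deletion C-G. Of the 16 pairs of neighbours in this order 5 had libraries that did not overlap: Deletion J above XX wild type, XX wild type above Deletion I-TEL, Deletion F above Deletion B, Deletion B above Deletion C, and Deletion AB above Deletion H. Deletions B and AB have 1 library each. Deletion B and Deletion C replicate 1 held 15 counts each, at 1.4341 and 1.4334 CPM, so that this pair was hardly apart. The 2 libraries of a condition differed by a median of 0.58 on the log2 scale (13 pairs, log2 of CPM + 0.1) and by 2.79 in Deletion I, where 1 library held 0 counts and the other 6.

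**Figure D1:**
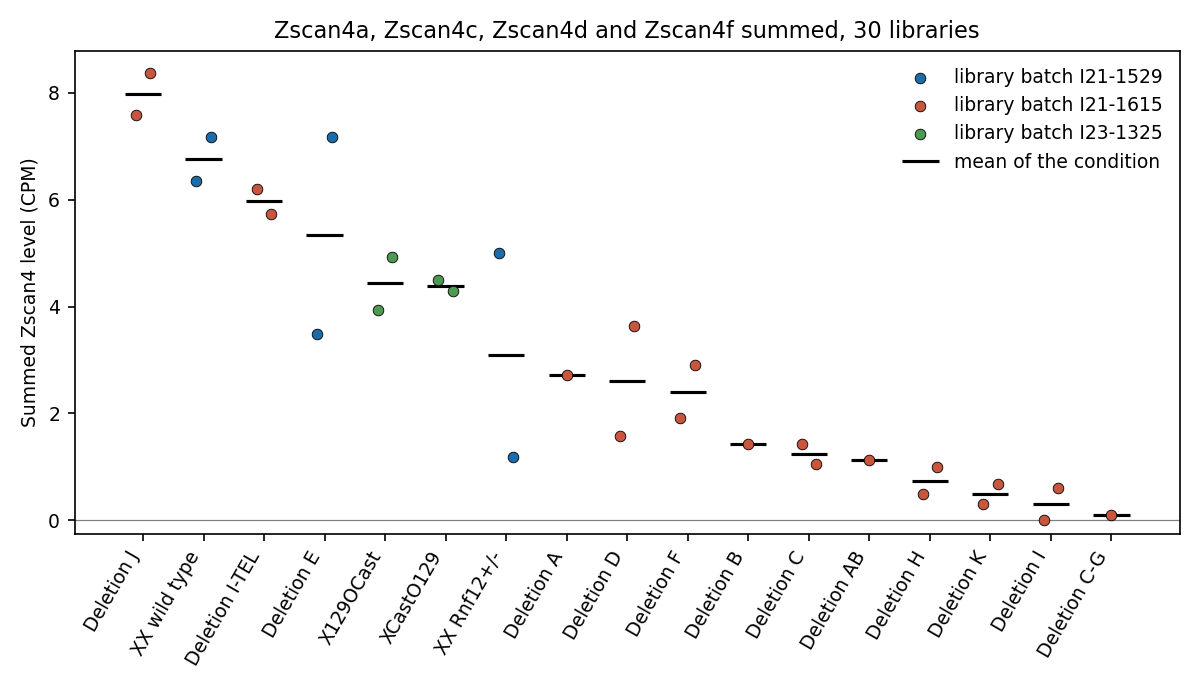
Summed level of Zscan4a, c, d and f in CPM for each library, by condition and library batch, with the mean of each condition as a bar. Deletion J (7.58 and 8.37 CPM), XX wild type and Deletion I-TEL lie highest, and Deletions H, K, I and C-G lie below 1 CPM.

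Zfp352, which shares no family with Zscan4, followed a like order at the top. It lay at 3.11 and 5.71 CPM in Deletion J, 2.63 and 3.42 in XX wild type and 2.17 and 2.43 in Deletion I-TEL. In every other library it lay between 0.0956 CPM, in Deletion C replicate 1, and 1.84 CPM, in Deletion E replicate 2, so that the 6 libraries of these 3 conditions did not overlap with the other 24. The share of all genes that separated these 6 libraries was not counted. In XX Rnf12+/- Zfp352 lay at 0.776 and 0.686 CPM, and both libraries were below both of XX wild type.

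The Tcstv sum, most of which came from Tcstv3, lay at 1.66 and 2.66 CPM in Deletion J, 1.67 and 1.94 in Deletion I-TEL and 0.861 and 1.64 in XX wild type. It was 1.03 and 0.425 CPM in Deletion E and 0.375 or less in all 22 other libraries. XCastO129 had no count of either gene in both libraries, Deletion C had 0 and 1, Deletion H 0 and 1 and Deletion I 0 and 1. The Tcstv sum of Deletion E replicate 1 (21 counts) lay within the range of XX wild type (18 and 34 counts), and that of replicate 2 (9 counts) did not.

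**Figure D2:**
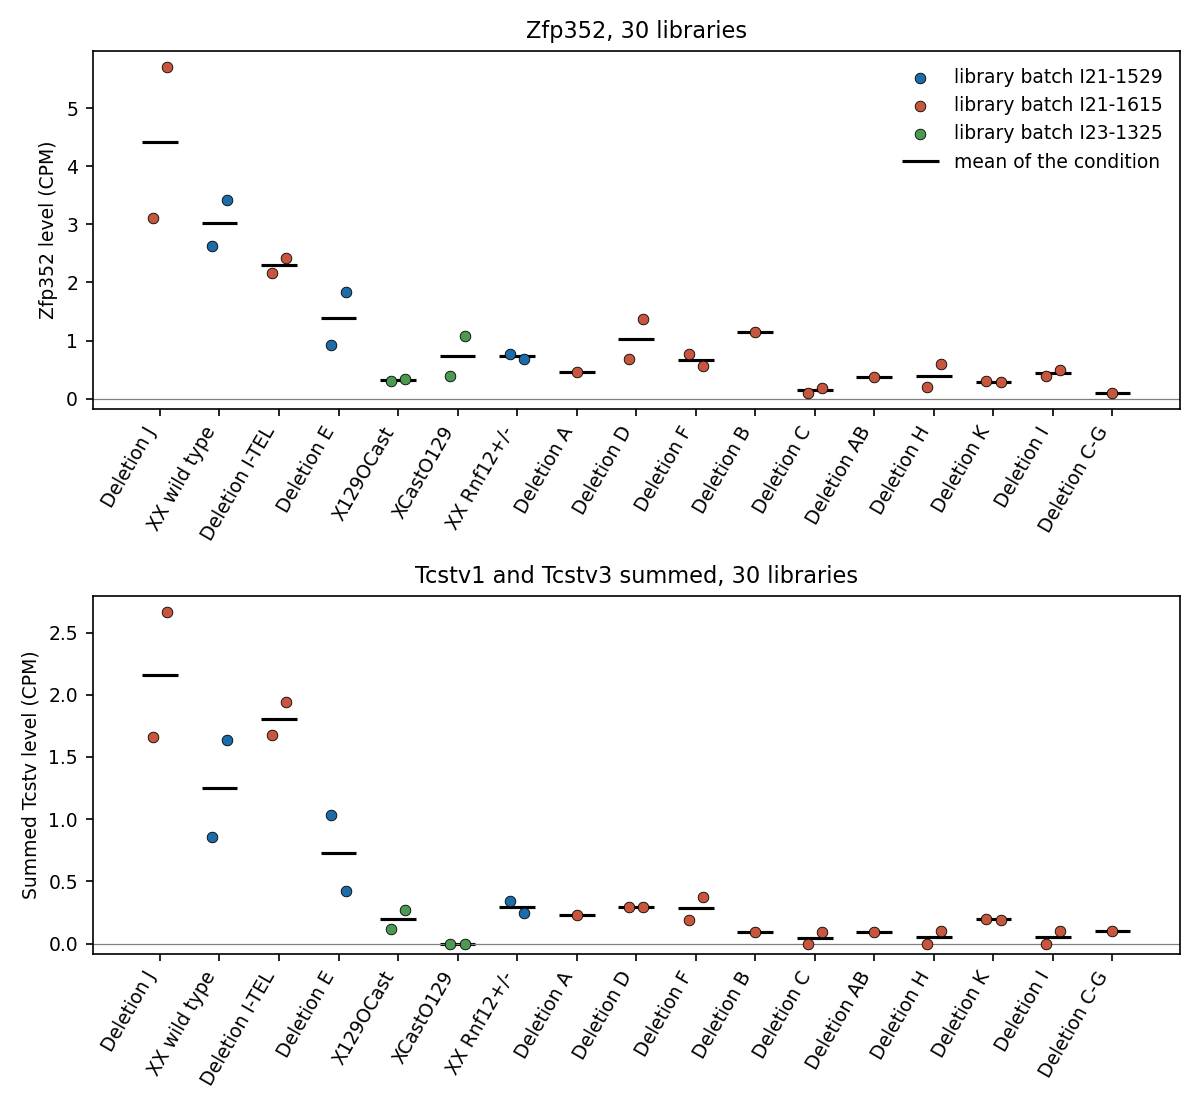
Levels of Zfp352 and of the summed Tcstv1 and Tcstv3 rows in CPM for each library, by condition and library batch, with condition means as bars. Deletion J (Zfp352 at 3.11 and 5.71 CPM), XX wild type and Deletion I-TEL lie above the other libraries for Zfp352, and XCastO129 has no Tcstv count.

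The comparison of XX Rnf12+/- with XX wild type asks whether the reference itself differs from unmodified cells, within 1 batch. Zfp352 held 16 and 14 counts in XX Rnf12+/- and 55 and 71 in XX wild type, and Tcstv3 held 3 and 4 against 15 and 29. The Zscan4 sum held 103 and 24 counts against 133 and 149. For all 3 the groups did not overlap. With so few libraries groups often separate by chance, and the share of all genes that did was not counted. For the Zscan4 sum the XX Rnf12+/- libraries differed from each other by more than replicate 1 differed from XX wild type. The log2 fold change was -2.02 (SE 0.33) for Zfp352, -2.57 (SE 0.57) for Tcstv3, -2.05 (SE 0.52) for the Tcstv sum and -1.11 (SE 0.67) for the Zscan4 sum.

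None of these differences passed when both groups were fitted alone without a replicate term. With a replicate block in that fit, Zfp352, Tcstv3 and Zscan4a were called, of which Tcstv3 is no support, since it passed the filter only through XX wild type. The replicate differences of both groups had r of 0.80, but the labels do not say that replicate numbers mark pairs. With edgeR's quasi-likelihood test fitted to both groups alone, Benjamini-Hochberg adjustment and a log2 fold change beyond 1, 0 of 5 tested members passed, where 0.0059% of all tested genes did. The adjusted p was 0.31 for Zfp352, 0.35 for Tcstv3 and 0.77 for the Zscan4 sum. At an unadjusted p under 0.05, Zfp352 and Tcstv3 were lower, the latter again no support, and DESeq2 called 0 members. With the spread taken from all 30 libraries, edgeR called Zfp352 (adjusted p = 0.011) and Tcstv3 (adjusted p = 0.018) as lower and no other member. The share of all tested genes called in that fit is not given here, and the 0.0059% is of the fit of both groups alone. Those 2 calls were lost without XX wild type replicate 2 and without either XX Rnf12+/- library, when 0 (without XX wild type replicate 2 or XX Rnf12+/- replicate 2) or 2 other members (Zscan4a and Zscan4c, without XX Rnf12+/- replicate 1) were called. Other genes of the state lay the same way: of 22 tested other two-cell genes 22 had negative log2 fold changes, 15 of them at an unadjusted p under 0.05 and 0 called. Their median was -1.97 against 0.00 over all tested genes. Listed genes that passed the filter on low counts only through XX wild type had to be lower in XX Rnf12+/-. How many did so was not counted, and the share of all tested genes at that unadjusted p is not given here, so these counts are no support.

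Both XO lines were compared with XX Rnf12+/- and with each other. The Zscan4 sum held 70 and 67 counts in XCastO129 and 65 and 74 in X129OCast, on libraries shallower than those of XX Rnf12+/- (103 and 24 counts). On the CPM scale the 4 XO libraries lay between the 2 XX Rnf12+/- libraries. The log2 fold change of the Zscan4 sum was 0.55 (SE 0.51, adjusted p = 0.43) in XCastO129 and 0.61 (SE 0.51, adjusted p = 0.34) in X129OCast by edgeR's test. Without XX Rnf12+/- replicate 2 the direction of both turned, to -0.14 and -0.08. The same XX Rnf12+/- libraries serve both comparisons.

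Tcstv3 was the 1 member called in XCastO129, lower, where 18.6% of all tested genes were called lower. A single call lies near that share and is no result about the members as a set. It held 0 counts in both libraries against 7 in XX Rnf12+/- together, at least 1.77-fold lower on the CPM scale with a floor of 3 counts over the group (edgeR adjusted p = 0.026). The Tcstv sum held 0 against 12 counts, at least 3.04-fold lower (adjusted p = 0.010). The call for Tcstv3 was lost without XX Rnf12+/- replicate 2 and without either XCastO129 library (adjusted p above the threshold, 0 members called), and DESeq2 and a fit of these 2 conditions alone also called 0.

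In X129OCast 0 of 6 tested members were called by edgeR or DESeq2, with 0 at an unadjusted p under 0.05, where 45.4% of all tested genes were called. Without XX Rnf12+/- replicate 1 edgeR called Zscan4a and Zscan4c, 2 members. Between X129OCast and XCastO129, which share a batch and a read type, 0 of 6 members were called by either tool against 5.9% of all tested genes, and 1 member, Tcstv3, had an unadjusted p under 0.05. The Zscan4 sum differed by 0.06 on the log2 scale (SE 0.50), and Zfp352 by -1.15 (SE 0.59, adjusted p = 0.28). The batch and read type of the XO lines differ from those of XX Rnf12+/-, so that these and the XO state cannot be told apart.

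Other genes of the pathway were counted beside the share of all tested genes called in either direction, 34.8% in XCastO129 and 45.4% in X129OCast, and counts near these shares are no result about a list. Of 23 tested other two-cell genes, 1 was higher (Usp17le) and 2 lower (Lmx1a and Ddit4l) in each XO line, with medians of 0.17 in XCastO129 and 0.26 in X129OCast. Of the 4 tested activators 3 were called in each line. Dppa4, which acts upstream of Dux, was higher by 0.67 (SE 0.11) in XCastO129 and 0.57 (SE 0.11) in X129OCast. Nelfa, a subunit of a complex that pauses RNA polymerase II, was higher by 0.31 (SE 0.10) and 0.34 (SE 0.10). Gata2, a transcription factor tied to MERVL activation, changed by -2.40 (SE 0.51) and -2.71 (SE 0.52). Dux itself, annotated as Duxf3, was not tested in any fit and lay between 0 and 0.954 TPM, highest in Deletion J replicate 2 and at 0 in 4 libraries.

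Of the 11 repressors of the state, 6 were called in XCastO129 and 5 in X129OCast, against the same shares of all tested genes. Setdb1, Ehmt2, Chaf1a and Chaf1b, which act in silent chromatin and its assembly, were higher in both XO lines. Ehmt2, a histone H3 lysine 9 methyltransferase, changed by 0.74 (SE 0.12) in XCastO129 and by 1.01 (SE 0.12) in X129OCast. Smchd1 was also higher (0.33, SE 0.11) and Kdm1a lower (-0.23, SE 0.07) in XCastO129, and Rif1 was lower (-0.39, SE 0.14) in X129OCast.

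Deletion E is the 1 deletion line in the batch of the reference. Its 2 clones held 71 and 152 Zscan4 counts, 19 and 39 Zfp352 counts and 17 and 7 Tcstv3 counts. For Zfp352 and Tcstv3 both clones lay above both XX Rnf12+/- libraries, and for the Zscan4 sum the groups overlapped. Such a separation is frequent by chance with so few libraries, and its share over all genes was not counted. By edgeR 0 of 6 tested members were called, against 0.59% of all tested genes, and DESeq2 called 0. At an unadjusted p under 0.05, 2 members were higher, Tcstv3 (1.70, SE 0.60, adjusted p = 0.27) and Zscan4c (1.75, SE 0.75, adjusted p = 0.39). Without XX Rnf12+/- replicate 1 Zscan4c was called, 1 member. Among the other two-cell genes 22 of 23 had positive log2 fold changes with a median of 1.23, 14 had an unadjusted p under 0.05 and 0 were called. The shares of all tested genes that were positive or had an unadjusted p under 0.05 are not given here. These counts are therefore no result about the members or the list.

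The 12 other deletion lines were sequenced in another batch than XX Rnf12+/-, so that the batch and the deletion cannot be told apart in this comparison. Of 72 pairs of member and line, edgeR called 8, 4 higher and 4 lower, where 7.14% of all pairs of gene and line were called higher and 8.33% lower. Both counts lie below these shares and are no result about the members as a set. The single calls are described below by their values. The 4 higher pairs were Zfp352 and Tcstv3 in Deletions J and I-TEL. The 4 lower pairs were Zfp352 in Deletion C, Zscan4d in Deletions C-G and K, and Zscan4a in Deletion I.

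In Deletion J, Zfp352 held 30 and 60 counts and was higher than in XX Rnf12+/- by 2.52 on the log2 scale (SE 0.44, edgeR adjusted p = 0.00078), and Tcstv3 held 15 and 19 counts (3.17, SE 0.57, adjusted p = 0.0013). In Deletion I-TEL, Zfp352 held 22 and 25 counts (1.57, SE 0.46, adjusted p = 0.024) and Tcstv3 14 and 14 counts (2.86, SE 0.59, adjusted p = 0.0028). The Zscan4 sum did not pass in either line (1.30, SE 0.51, adjusted p = 0.099 in Deletion J, and 0.87, SE 0.51, adjusted p = 0.26 in Deletion I-TEL). The call for Zfp352 in Deletion I-TEL was lost without either of its libraries and without either XX Rnf12+/- library.

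On the low side, Zscan4a had 0 counts in both Deletion I libraries against 48 in XX Rnf12+/- together (adjusted p = 0.014). With 3 counts in place of 0 this was 7.93-fold lower (95% counting interval from 6.20). Zscan4d had 0 counts in Deletion C-G against 59, 4.89-fold lower with 3 counts in place of 0 (95% counting interval from 3.85). It had 3 counts in Deletion K, 9.78-fold lower (95% counting interval 3.19 to 48.8, adjusted p = 0.029). Zfp352 had 1 and 2 counts in Deletion C (-2.31 on the log2 scale, SE 0.75, adjusted p = 0.025). The Zscan4 sum was called lower in Deletion I (-3.37, SE 0.80, adjusted p = 0.016), in Deletion K (-2.67, SE 0.73, adjusted p = 0.026) and in Deletion C-G, which had 1 count (31.6-fold lower, counting interval 5.57 to 1257, adjusted p = 0.025). Deletion C-G is 1 library, and its p-values assume that it varies like the other conditions. Intervals, and values with 3 counts in place of 0, cover counting error only.

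These calls changed with the XX Rnf12+/- library kept, and the Zscan4 sum was 4.99 CPM in replicate 1 and 1.18 CPM in replicate 2. Without replicate 1, edgeR called 7 pairs, all higher and 0 lower. Without replicate 2 it called 17, 3 higher and 14 lower. The lower calls were also lost without either clone of the line in Deletions C, I and K, and Deletion C-G had only 1 clone. DESeq2 called 4 of 72 pairs (1 higher and 3 lower).

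Within the batch of 20 libraries the lines could be compared with each other at like depth and read type. Each of the 5 tested members passed the test of variation among the 12 lines by more than clones of a line did, by edgeR's quasi-likelihood F test over the 11 line coefficients, where 54.6% of all tested genes did. The adjusted p was 5.1e-05 for Zfp352, 0.00011 for Zscan4a, 0.00012 for Tcstv3, 0.00099 for Zscan4c and 0.0024 for Zscan4d. Zscan4c and Tcstv3 passed the filter on low counts only through Deletions J and I-TEL, with at most 3 counts in any other library of the batch, so that they had to differ and their calls here and in the next comparison are no support. The Tcstv sum also passed only through these lines, with at most 4 counts in any other library, and is no support either. Zfp352, Zscan4a and Zscan4d reached 10 counts in 2 or more libraries of other lines. Without Deletions J and I-TEL, a comparison added after their values were seen, 1 of 5 members varied, Zscan4a (adjusted p = 0.019), as did the Zscan4 sum (adjusted p = 0.019).

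When each line was set against the mean of the other 11, edgeR called 13 of 60 pairs of member and line, 11 higher and 2 lower, where 6.27% of all pairs of gene and line were called higher and 4.97% lower. Of the 11 higher, 10 were the 5 tested members in Deletions J and I-TEL, and the other was Zscan4a in Deletion D (7 and 19 counts). In these 2 lines 12.7% (Deletion J) and 10.8% (Deletion I-TEL) of all tested genes were called higher. Of these 10, 4 were Zscan4c and Tcstv3, which entered the test through these lines. DESeq2 called the same 10 pairs and no other.

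The 2 lines lay apart from the rest of the batch in each library. The 4 libraries of Deletions J and I-TEL held 5.73 to 8.37 CPM of the Zscan4 sum (median 6.89), and the 16 others 0 to 3.64 CPM (median 1.09). For Zfp352 the ranges were 2.17 to 5.71 CPM (median 2.77) against 0.0956 to 1.38 (median 0.423), and for the Tcstv sum 1.66 to 2.66 CPM (median 1.81) against 0 to 0.375 (median 0.0988). The ranges did not overlap for any of the 3. The share of all genes that separated these libraries was not counted. The Tcstv sum passed the filter on low counts only through these 2 lines, so its separation is no support.

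Against the other 11 lines, Deletion J was higher by 2.85 on the log2 scale for the Zscan4 sum (SE 0.29, edgeR adjusted p = 7.9e-06), 3.18 for Zfp352 (SE 0.29, adjusted p = 2.4e-06) and 3.71 for the Tcstv sum (SE 0.38, adjusted p = 7.8e-06). Deletion I-TEL was higher by 2.38 (SE 0.31, adjusted p = 6.7e-05), 2.15 (SE 0.33, adjusted p = 0.00031) and 3.42 (SE 0.40, adjusted p = 2.4e-05). The Tcstv sum passed the filter on low counts only through these 2 lines, so its values are no support. All 10 calls of single members in these 2 lines held without each library of the batch in turn. Fold changes of single Zscan4 and Tcstv rows are not given for this comparison, since other lines hold 0 counts of them.

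**Figure D3:**
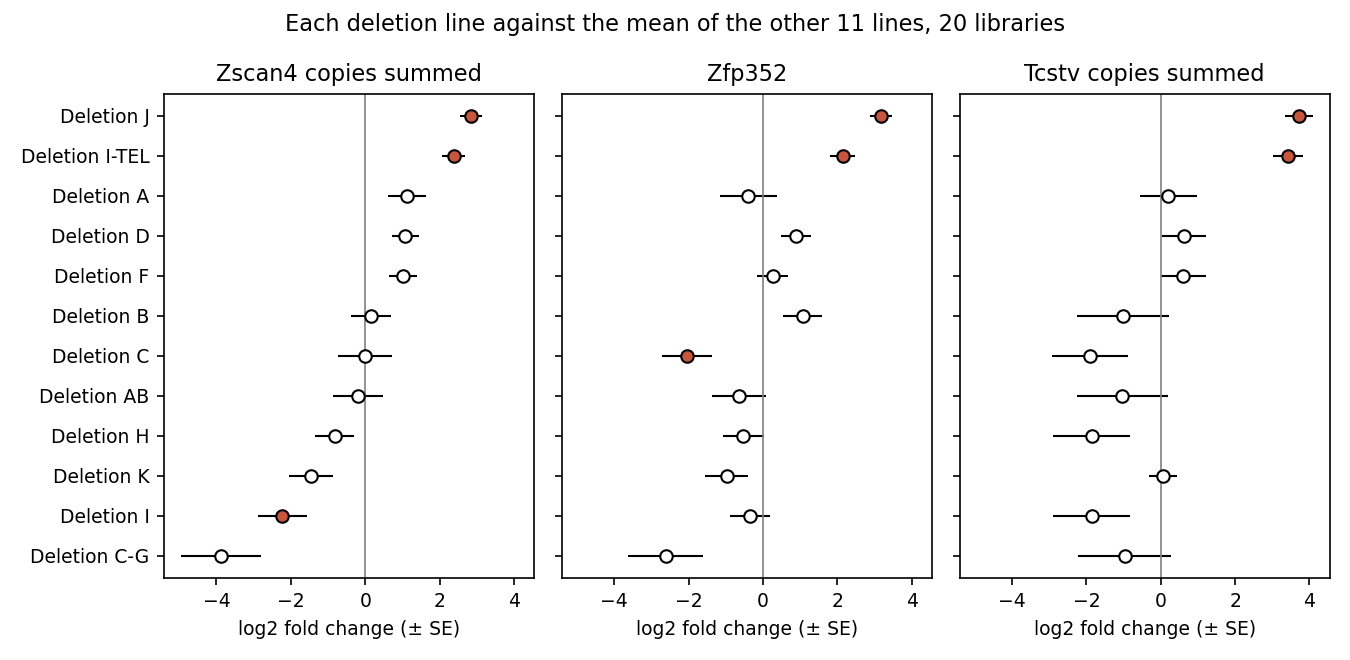
Log2 fold change of each of 12 deletion lines against the mean of the other 11 for the Zscan4 sum, Zfp352 and the Tcstv sum, with standard errors, where filled points passed the adjusted threshold. Deletion J (2.85, 3.18 and 3.71) and Deletion I-TEL (2.38, 2.15 and 3.42) lie above the other lines in all 3. The Tcstv sum passed the filter on low counts only through these lines.

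On the low side of this comparison, Zfp352 was lower in Deletion C (-2.04, SE 0.68, adjusted p = 0.026), a call that was lost without either Deletion C library. Zscan4a was lower in Deletion I, with 0 counts in 2 libraries against 236 in the 18 others, at least 8.70-fold lower with a floor of 3 counts (adjusted p = 0.0069). The call was lost without Deletion I replicate 1. The Zscan4 sum of Deletion I was lower by edgeR's test (-2.22, SE 0.67, adjusted p = 0.043). Deletion C-G, with 1 Zscan4 count in 1 library, was 26.03-fold lower than the 19 other libraries (counting interval 4.65 to 1030) and did not pass (adjusted p = 0.082). The call for Zscan4a in Deletion D was lost without each of 9 single libraries of the batch, among them Deletion D replicate 2 and both libraries of Deletions C, I-TEL and J.

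Other genes of the state lay higher in the same lines. Against the other 11 lines, 20 of 22 tested other two-cell genes were higher in Deletion J and 19 of 22 in Deletion I-TEL, with 0 lower in both and medians of 2.81 and 2.47 against 0.01 over all tested genes in each. The largest changes in Deletion J were 4.91 for BC147527 (SE 0.33), 3.77 for Gm2022 (SE 0.46) and 3.48 for Gm21761 (SE 0.22). In Deletion I-TEL they were 4.45 for BC147527 (SE 0.36), 3.39 for the ubiquitin protease gene Usp17ld (SE 0.60) and 3.20 for Gm21761 (SE 0.23). The list was put together with the members in view and its copies share sequence, and it is described here by its counts. Listed genes that passed the filter on low counts only through Deletions J and I-TEL had to be higher there. How many did so was not counted, so these counts are no support.

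Against XX Rnf12+/-, 16 of 23 other two-cell genes were higher in Deletion J, where 6.24% of all tested genes were called higher, and 12 of 23 in Deletion I-TEL, where 7.88% were. At the other end 3 were lower in Deletion C-G (Gm5662, Gm21761 and Gm8300), 4 in Deletion I (these and Tmem92) and 0 in Deletion K, with medians of -4.04, -1.71 and -1.53. Of all tested genes 5.65% were called lower in Deletion C-G, 5.14% in Deletion I and 5.33% in Deletion K. Summed over the 34 genes of the list found in the annotation (36 listed), the level was 138 to 176 TPM in Deletion J, 128 to 134 in XX wild type, 127 to 131 in Deletion I-TEL and 78.0 to 107 in Deletion E. It was 29.5 and 59.5 TPM in XX Rnf12+/-, 35.6 to 49.7 in the XO lines and 20.3 to 31.3 in Deletions C-G, H, I and K.

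Of 15 tested regulators 3 were called in Deletion J against the other 11 lines and 2 in Deletion I-TEL, where 23.8% and 19.0% of all tested genes were called in either direction. Of the 4 tested activators, Gata2 was lower in Deletion J (-1.10, SE 0.37, edgeR adjusted p = 0.041) and none was called in Deletion I-TEL. Of the 11 repressors, Zfp42, a stem cell zinc finger gene, was higher (0.39, SE 0.11) and Chaf1b, a subunit of chromatin assembly factor 1, lower (-0.20, SE 0.06) in Deletion J. In Deletion I-TEL the sister subunit Chaf1a was higher (0.24, SE 0.07) and Chaf1b lower (-0.35, SE 0.07). No other regulator was called in these 2 lines.

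Fibroblast markers moved with these lines as well. Against the other 11 lines 5 of 7 were higher in Deletion J, and in Deletion I-TEL 6 were higher and Thy1 lower. Of all tested genes 12.7% were called higher in Deletion J and 10.8% in Deletion I-TEL. The 7 markers summed to 180 to 249 TPM in Deletion J, 135 to 234 in Deletion I-TEL and 221 to 230 in Deletion D. They summed to 159 TPM in Deletion A, 158 in Deletion AB and 146 in Deletion B. In Deletions C-G, H, I and K they summed to 63.8 to 89.9 TPM. In XX wild type they were 255 and 91.9 TPM while the Zscan4 sum was 6.36 and 7.17 CPM, and in XX Rnf12+/- 308 and 95.3 TPM while it was 4.99 and 1.18 CPM. Across libraries the fibroblast sum and the Zscan4 sum, both on the log2 scale, had r of 0.68 (n = 30) and 0.74 (n = 20, the largest batch), but in 4 of 13 replicate pairs only did the library with more fibroblast RNA also hold more Zscan4. The part of feeder cells in these levels was not tested.

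**Figure D4:**
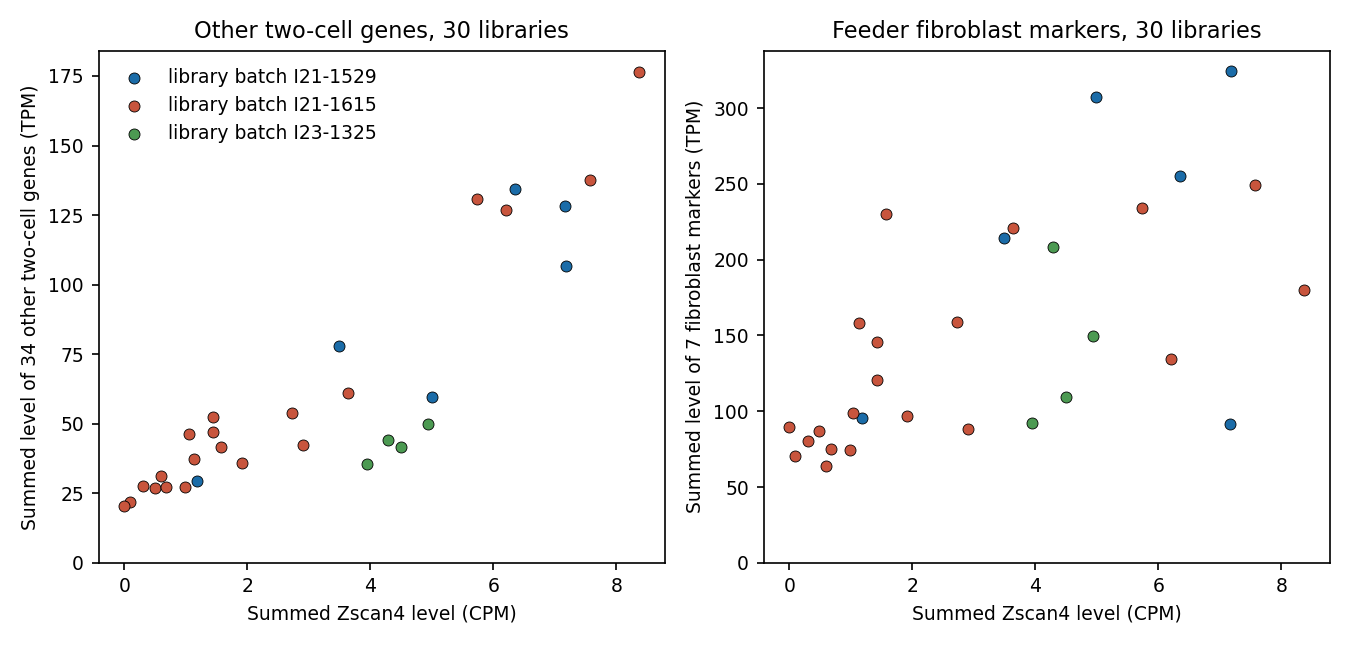
Zscan4 sum in CPM of each library against the summed TPM of other two-cell genes and of fibroblast markers, by library batch. The 20 libraries of the largest batch have r of 0.954 with the other two-cell genes and 0.742 with the fibroblast markers on the log2 scale.

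The 10 genes outside the members whose level was most like the Zscan4 sum were ranked by Pearson's r of log2(CPM + 1) over the 30 libraries, among 15582 genes with a mean of at least 10 counts. They were Zscan4-ps3 (r = 0.926), Gm18983 (0.918), Gm5662 (0.908), Gm5039 (0.901), Gm2016 (0.893), Usp17lc (0.893), Gm4340 (0.881), Gm21761 (0.871), Tmem92 (0.864) and Gm8300 (0.862). The median r over all ranked genes was -0.01. Zscan4-ps3 is a Zscan4 copy and shares reads with the members, and 7 of the other 9 were in the list of other two-cell genes. Gm18983 and Gm5039, both on chromosome 12, were in no list. Gm5039 lay at 32.8 and 36.4 TPM in Deletion J, 31.5 and 26.1 in XX wild type, 7.75 and 1.40 in XX Rnf12+/- and 0.534 in Deletion C-G.

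Reads that fell on bases that differ between 129 and Cast could be given to an allele for a few of the members. For Zscan4d 95 of 182 such counts were from 129 (52.2%, 95% exact binomial interval 44.7 to 59.6%), and for Zfp352 28 of 66 (42.4%, interval 30.3 to 55.2%), over the 30 libraries together. Zscan4c and Zscan4f had no allelic count, Zscan4a 13 and Tcstv3 15. Both intervals hold an equal share, and no departure from it was detected.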

How the data were processed

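Bulk RNA-seq of 30 libraries was analysed. The authors trimmed reads with Trim Galore 0.6.7, aligned them with HISAT2 2.2.1 to an mm10 genome masked at 129 and Cast differences, split them by allele with SNPsplit, and deposited raw counts per Ensembl gene for all, 129 and Cast reads. The paper's methods name featureCounts as the counter, and the labels name HTSeq 0.12.4, so which of them made the table is not settled. All 90 value columns matched a labelled sample. Symbols came from GENCODE M21 (55240 of 55421 genes matched), and TPM was computed from unions of exons.

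Groups came from the labels. Counts were tested with edgeR 4.0.16 (quasi-likelihood, TMM factors from autosomal genes, at least 10 counts in at least 2 libraries, Benjamini-Hochberg over all tested genes, adjusted p under 0.05) in R 4.3.3. A log2 fold change beyond 1 was also asked of XX Rnf12+/- against XX wild type. SE is the log2 fold change divided by the root of F. The fits held 4 libraries (16944 genes), 30 libraries (18316 genes) and the 20 libraries of the largest batch (16646 genes). Sums of copies were added as rows. DESeq2 1.42.0, other filters, other size factors, a replicate block and the omission of single libraries were the alternatives, and the last kept the dispersion trend of the full fit. Scripts were tested on simulated counts. Nothing in the labels says that all replicates were separate cultures, so p-values measure the spread between these libraries, which may be technical; the paper calls them clones for the deletion lines. No 2 replicates agreed within sampling noise.

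The members and gene lists were chosen with earlier results of these data known. Named were the 7 members and 2 sums, activators and repressors that passed, up to 3 other two-cell genes with the largest change per comparison, and the 10 genes most like the Zscan4 sum. Other genes named with values were chosen after their values were seen.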

Additional observations from a re-analysis of the deposited data

How the results depend on the processing

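No called value changed direction in any alternative run, but values that passed no threshold did, such as the Zscan4 sum in both XO lines. Of the single values recomputed, 478 kept their side of the threshold, 64 lost their call and 1 moved. Depth limits single copies, many of which held 0 to 3 counts in a library. Members called in XX Rnf12+/- against XX wild type went from 0 in the fit of 4 libraries, also without single libraries, to 2 with all 30 libraries. In XCastO129 the 1 member called became 0 with these 2 conditions alone or DESeq2 and 0 to 2 without single libraries. In X129OCast the range was 0 to 2, in Deletion E 0 to 1, and between the XO lines 0 throughout. In the 12 other lines against XX Rnf12+/-, 8 of 72 pairs were called, and 16 of 84 without a filter on low counts, 4 of 72 by DESeq2, 4 of 23 with 2 conditions alone (8 lines, 7 calls in all 30 libraries) and 7 to 17 without single libraries. Variation among the 12 lines was called for 5 of 5 members, for 3 of 3 values with copies summed and for 1 of 5 members without Deletions I-TEL and J. Zscan4c, Tcstv3 and the Tcstv sum entered the fit of this batch only through Deletions I-TEL and J. Against the other 11 lines 13 of 60 pairs were called, and 8 of 36 with copies summed, 3 of 50 without Deletions I-TEL and J, and 11 to 14 without single libraries. Leaving out all replicates 1 or 2 at once was not run, since no residual degrees of freedom remain in the batch of 20.

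Replicate numbers were not taken as pairs. Over 78 pairs of 13 groups, deviations of same-numbered libraries correlated with r of -0.47 to 0.80 (median 0.02), and 33 were over 0.1. With a replicate block 3 members were called in XX Rnf12+/- against XX wild type (Zfp352, Tcstv3 and Zscan4a), whose own pairs had r of 0.80. Tcstv3 entered that fit only through XX wild type. The block gave 12 pairs against the other 11 lines, losing Zscan4a in Deletion D, and changed no other call.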
